A study of Homo sapiens with 20 samples.

Results

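Kinesins are motor proteins that walk along microtubules or take microtubules apart. In the mRNA-seq table of decitabine-treated lung cancer cells, 40 of the 36076 gene entries have a symbol that starts with KIF and a digit, and these are described one by one. They hold 38 kinesin genes, the kinesin-binding protein gene KIF1BP, which encodes no motor, and the antisense RNA gene KIF25-AS1. By textbook role, 12 of the kinesin genes were grouped as mitotic kinesins, 13 as transport kinesins, and the remaining 13 as other kinesins.

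The mRNA-seq libraries came from A549, PC9, H1299, H1792, CL1-0 and CL1-5, established human lung cancer cell lines of which CL1-5 is a subline of CL1-0. Each line was given either PBS (Mock) or decitabine (DAC), a cytidine analog that depletes DNA methyltransferases, at 100 nM for 72 hours, and was then grown for 3 days without drug. There was 1 library per line and treatment, 12 in all, so that the lines are the replicates and a difference within a line has no replicate check. CL1-0 and CL1-5 share an origin and may not be independent replicates, but each counts as a line. Omni-ATAC-seq peaks, which mark accessible chromatin, were listed for 8 libraries labelled A549, CL1-5, PC9 and H1299 with either treatment. The labels give neither passage nor clone of a line. The cells were bulk cultures, in which fewer cells in division and less RNA per dividing cell cannot be told apart.

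Mitotic kinesins build and position the spindle, move chromosomes and finish cytokinesis, and most of their genes are transcribed late in the cell cycle, from G2 into mitosis. Transport kinesins carry vesicles, organelles and ciliary cargo along microtubules in cells at any stage, and some of them are best known from neurons. The promoters of many genes of late cell cycle hold a short element named the cell cycle genes homology region (CHR), bound by the DREAM and MMB complexes, often downstream of CCAAT boxes bound by NF-Y.

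The promoter sequences are shown first, since their motifs were not used to choose or group the genes. They come from RefSeq, in GRCh38.p14, as windows of 300 bases from 250 bases before to 50 bases after the start, and 33 of the 40 members were matched. A CHR was scored as TTTGAA or TTCGAA on either strand, and a CCAAT box as CCAAT on either strand. A CCAAT and a CHR can share at most 1 base at their ends. A CHR was present for 10 of the 12 mitotic kinesins (83.3%), and for 1 of the 11 transport kinesins with a promoter (9.09%), against 15.6% of the 12437 tested genes with a promoter. CCAAT was present for 10 of 12 mitotic and 4 of 11 transport kinesins, against 42.4% of those genes. Both motifs were present for 9 mitotic kinesins and 1 transport kinesin, against 6.45% of all. Genes count once however many promoters they have; of 35116 single promoters, 16.4% held a CHR and 34.6% a CCAAT.

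The 75 bases before the start are printed below for mitotic kinesins with a CHR there, in 5′ to 3′ direction of the gene, with CHR and CCAAT letters of either strand in capitals (a CCAAT on the reverse strand reads ATTGG, and a TTTGAA on the reverse strand reads TTCAAA).
KIF11, chr10:92593055-92593129, plus strand: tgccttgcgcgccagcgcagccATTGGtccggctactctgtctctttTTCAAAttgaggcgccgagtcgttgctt
KIF4A, chrX:70290029-70290103, plus strand: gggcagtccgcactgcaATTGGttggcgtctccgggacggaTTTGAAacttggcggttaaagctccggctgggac
KIF22, chr16:29790676-29790750, plus strand: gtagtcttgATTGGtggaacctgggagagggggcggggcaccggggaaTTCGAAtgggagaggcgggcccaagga
KIF18A, chr11:28108157-28108231, minus strand: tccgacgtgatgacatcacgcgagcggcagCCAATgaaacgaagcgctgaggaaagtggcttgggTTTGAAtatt
KIF23, chr15:69414274-69414348, plus strand: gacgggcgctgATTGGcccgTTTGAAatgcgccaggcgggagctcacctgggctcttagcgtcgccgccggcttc
KIF15, chr3:44761719-44761793, plus strand: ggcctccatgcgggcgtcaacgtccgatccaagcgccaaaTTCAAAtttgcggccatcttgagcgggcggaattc

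In 5 of these 6 windows the CCAAT box lies before the CHR. The bases between them number 20 in KIF11, 19 in KIF4A, 34 in KIF22, 30 in KIF18A and 4 in KIF23, while KIF15 has no CCAAT in the window. In KIF14, KIF18B, KIF20B and KIF4B the CHR lies past the start, at positions 2, 3, 25 and 4. For contrast, the next windows belong to the mitotic kinesins without a CHR, KIF20A and KIF2C, and to the transport kinesins KIF1C, KIF3B and KIF5B.
KIF20A, chr5:138179037-138179111, plus strand: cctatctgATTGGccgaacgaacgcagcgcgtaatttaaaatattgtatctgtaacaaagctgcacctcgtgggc
KIF2C, chr1:44739762-44739836, plus strand: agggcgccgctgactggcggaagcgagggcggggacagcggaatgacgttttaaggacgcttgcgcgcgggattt
KIF1C, chr17:4997875-4997949, plus strand: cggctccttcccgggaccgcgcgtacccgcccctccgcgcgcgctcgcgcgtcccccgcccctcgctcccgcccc
KIF3B, chr20:32277576-32277650, plus strand: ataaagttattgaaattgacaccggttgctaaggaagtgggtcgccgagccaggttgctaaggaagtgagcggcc
KIF5B, chr10:32056426-32056500, minus strand: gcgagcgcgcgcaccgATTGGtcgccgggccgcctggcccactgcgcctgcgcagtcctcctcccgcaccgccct

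No CHR letters stand in these 5 windows. KIF5B has a CHR at position -140, outside the printed window, and is the transport kinesin that holds one. Among the other kinesins the CHR was found for KIF24, at position 2, which is 1 of the 10 with a promoter. The same motif was found for 25 of 30 spindle and cytokinesis partner genes (83.3%), for 2 of 18 DNA replication genes and for 0 of 11 transport partner genes. These matches describe letters and not binding.

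**Figure D1:**
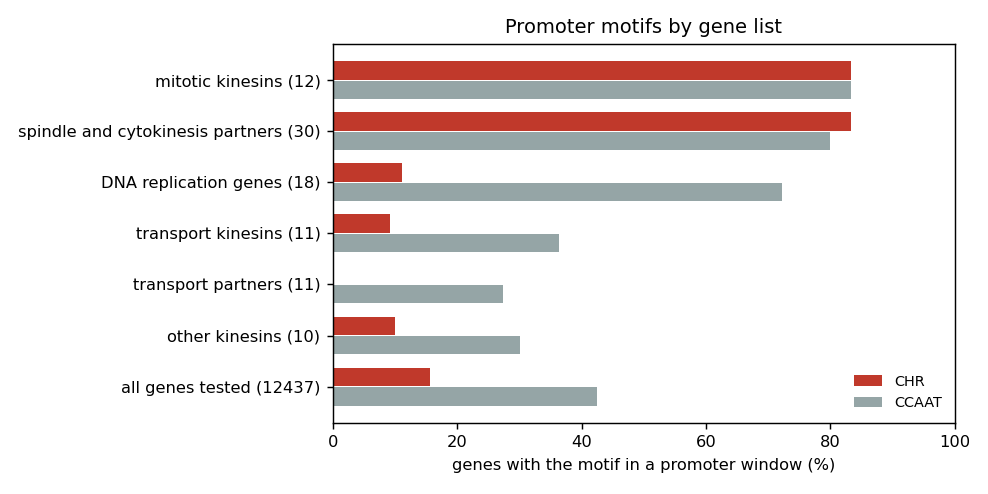
Share of genes (%, horizontal axis) whose promoter window holds a CHR (red) or a CCAAT box (grey), by gene list, with the number of genes with a promoter in brackets. The CHR stands at 83.3% for mitotic kinesins and for their spindle partners, against 9.09% for transport kinesins and 15.6% of all tested genes.

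Before treatment, levels are given in FPKM, reads scaled for the length of the gene and the depth of the library, which allows genes to be compared per length. Between 22234485 and 25303899 reads were counted on genes in the libraries outside H1299, and 59735913 and 52634234 in the H1299 libraries. In H1299, an even number of reads was found for 85.5% (Mock library) and 81.9% (DAC library) of genes holding 1 to 20 reads, against 39.2% to 41.5% elsewhere, so its reads are not independent counts. The summed FPKM of 5 epithelial markers spanned 0.986 (CL1-0) to 3015 in Mock and 3.05 to 1907 after DAC, so that CL1-0 was close to silent for them. The sum of 5 leukocyte markers reached at most 4.84 in Mock and 8.33 after DAC, and that of the endothelial markers 0.360 and 1.74. The sum of 4 fibroblast markers was highest in H1792, at 74.4 and 94.2, and its part in the results for H1792 was not tested.

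The mitotic kinesins were among the most abundant members in Mock. KIF2C, a depolymerase that corrects chromosome attachments, had the highest mean FPKM, 45.2 ± 14.4 (SD, n = 6 lines), followed by the transport kinesin KIF5B at 40.4 ± 17.7, KIF20A at 40.02 ± 20.5 and KIF22 at 33.3 ± 5.32. These neighbours lie within their spread. KIF5B, the heavy chain of conventional kinesin in most tissues, and KIF1C, a carrier of vesicles, were the most abundant transport kinesins. The Mock FPKM of KIF1C spanned 19.6 to 22.95 (median 20.96) over the lines, and that of the neuronal kinesin KIF1A spanned 0 to 10.7 (median 0.515). The other kinesins were mostly low, with KIF2A highest among them at 11.5 ± 1.99. KIF6 and KIF19, of which the latter trims motile cilia, stayed below a mean FPKM of 0.1 and were left out of the test, at no more than 0.0633 and 0.0443 FPKM in any library.

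The first question was whether any kinesin gene changed with DAC beyond the spread between lines. Over A549, PC9, H1299, CL1-0 and CL1-5, the lines that the study compared, 38 members had a mean FPKM of at least 0.1 and entered a fit of log2(FPKM + 0.1) over 22603 genes with limma, with the line as a block. On this scale the fold change of genes with low FPKM is understated. No member passed a Benjamini-Hochberg adjusted p of 0.05: the count was 0 higher and 0 lower, against 0.119% of all genes higher and 0% lower. At an unadjusted p under 0.05, 1 member was higher (KIF1A) and 1 was lower (KIF22), against 8.07% and 4.4% of all genes. With voom on the recovered reads, another tool of limma, 178 genes were called higher and 1 lower, and again 0 were members. The reads of H1299, which are not independent counts, entered voom like the others. With H1792 as a sixth line the counts of members were 0 and 0, against 0.232% and 0% of all genes, and at an unadjusted p under 0.05 they were 1 higher and 2 lower (KIF22 and KIF15), against 8.92% and 2.92%.

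KIF22 (Kid; ENSG00000079616, chromosome 16 of GRCh37, 29802048 to 29816706) encodes a chromokinesin that pushes chromosome arms towards the spindle equator. Its FPKM went from 39.7 to 19.2 in A549, from 35.9 to 24.2 in PC9, from 37.7 to 30.1 in CL1-0, from 30.2 to 31.3 in CL1-5, from 30.2 to 26.6 in H1299 and from 25.9 to 14.1 in H1792. It was lower after DAC in 5 of 6 lines as deposited, and in 6 of 6 when FPKM were rescaled to a common sum or quantile normalized. The mean FPKM over the lines of the fit was 34.7 ± 4.39 (SD, n = 5 lines) with Mock and 26.3 ± 4.87 with DAC, and the fitted log2 fold change -0.41 with an SE of 0.17 (limma, adjusted p = 0.383). Without A549 the log2 fold change was -0.26, and the unadjusted p rose from 0.0414 to 0.105 (limma), and it was likewise above 0.05 without PC9 (0.113) or CL1-0 (0.0790), without the block (0.0683) and without the trend (0.0709). KIF15 (ENSG00000163808, chromosome 3 of GRCh37, 44803213 to 44914868), which encodes a motor that helps to hold the spindle poles apart, had an FPKM that went from 4.66 to 3.73 in A549, from 7.100 to 4.48 in PC9, from 14.00 to 13.1 in CL1-0, from 13.4 to 11.4 in CL1-5, from 2.26 to 2.17 in H1299 and from 8.09 to 3.04 in H1792. Those values were lower after DAC in 6 of 6 lines as deposited, a pattern that 1.8% of all tested genes share, but in 4 of 6 with FPKM rescaled to a common sum and in 5 of 6 after quantile normalization. Over the lines of the fit the log2 fold change was -0.27 with an SE of 0.13 (limma, adjusted p = 0.4302), and -0.46 with an SE of 0.18 (limma, adjusted p = 0.381) with H1792. It was -0.17 without PC9 and -0.15 with FPKM rescaled to a common sum.

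KIF1A (ENSG00000130294, chromosome 2 of GRCh37, 241653178 to 241763710) encodes a fast carrier of synaptic vesicle precursors. The FPKM of this gene went from 0.389 to 1.16 in A549, from 1.23 to 2.06 in PC9, from 10.7 to 9.98 in CL1-0, from 0.642 to 1.300 in CL1-5, from 0.0793 to 0.334 in H1299 and from 0 to 0.0202 in H1792. The reads behind the last line numbered 0 in Mock and 6 after DAC, and those of H1299 56 and 218. KIF1A was thus low in every Mock library but that of CL1-0, the line in which it was not higher after DAC as deposited. The log2 fold change was 0.83 with an SE of 0.24 (limma, adjusted p = 0.283) over the lines of the fit and 0.74 with an SE of 0.23 (limma, adjusted p = 0.295) with H1792, and 15.8% of all tested genes were likewise higher in at least 5 of 6 lines. The size of this value moved with the processing, from 0.36 with a pseudocount of 1 to 1.09 with FPKM rescaled to a common sum, and its unadjusted p from 0.00962 to 0.461 without the block (limma).

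The second question was how mitotic and transport kinesins compared within each line. Each line has 1 library per treatment, so the values below carry no test. Beside each count past 1.5-fold as deposited stands the share of all 22603 genes past that fold. For counts below or above 0, all 22603 genes held 9548 below and 12084 above in A549, 9707 and 11536 in PC9, and 9352 and 11660 in H1792. The same numbers were 7278 and 9799 in H1299, and 10559 and 11128 in CL1-5. The median log2 fold change of the mitotic kinesins was below that of the transport kinesins in H1792, A549 and PC9, and above it in CL1-0, CL1-5 and H1299. The difference of the medians (mitotic minus transport) was -1.01 in H1792, -0.60 in A549 and -0.57 in PC9, and 0.08 in CL1-0, 0.18 in CL1-5 and 0.20 in H1299. Its mean over the 6 lines was -0.29 ± 0.51 (SD), so that the spread between lines exceeded the mean, and without H1792 it was -0.14 ± 0.41. Of the 156 pairs of 1 mitotic and 1 transport kinesin, the mitotic one had the lower log2 fold change in 92.9% of pairs in A549, 94.9% in PC9 and 91.0% in H1792, against 38.5% in CL1-0, 32.7% in CL1-5 and 28.8% in H1299. Genes of a list are not replicates, and these shares describe each line.

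**Figure D2:**
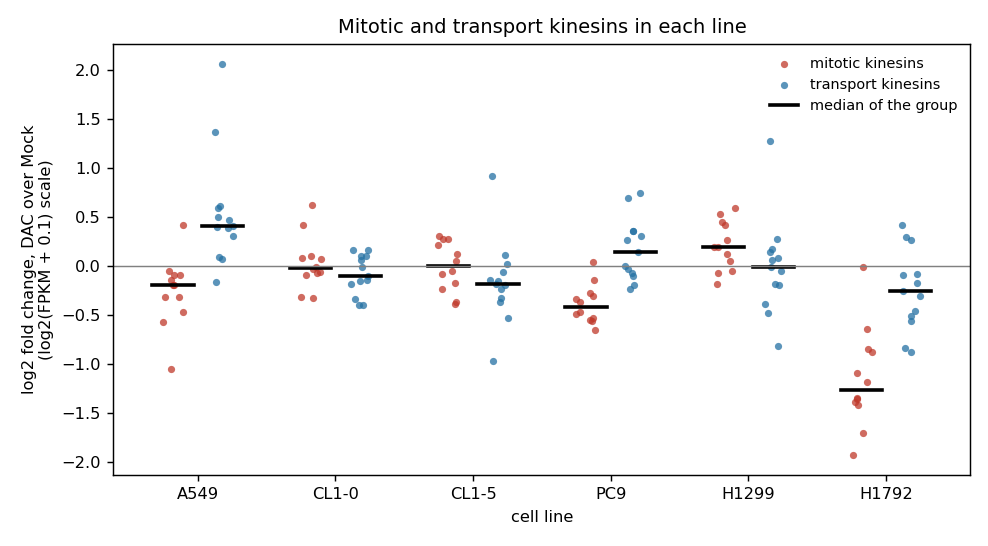
Log2 fold change of DAC over Mock, on the log2(FPKM + 0.1) scale (vertical axis), of the 12 mitotic (red) and 13 transport kinesins (blue) in each line; black bars are group medians. The mitotic median lies below the transport median in A549, PC9 and H1792, and the position of the A549 mitotic median below 0 (-0.20) turns to 0.15 with FPKM rescaled to a common sum.

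H1792 stood apart. All 12 mitotic kinesins had a log2 fold change below 0 in this line, with a median of -1.27, and 11 were at least 1.5-fold lower after DAC, against 14.3% of all genes; none was 1.5-fold higher, against 19.8%. KIF4B was the gene not past the fold, at -0.01, with 0.193 and 0.190 FPKM on 21 and 20 reads. Its level is close to the 0.1 added to each FPKM, so that a change would be understated. KIF14, which recruits cytokinesis factors to the midbody, went from 12.04 to 3.08 FPKM (log2 fold change -1.93), on 2173 and 538 reads. KIF20B, another kinesin of cytokinesis, went from 12.1 to 3.64 (-1.70). KIF11 (Eg5; ENSG00000138160, chromosome 10 of GRCh37, 94333862 to 94415152), the motor that drives the spindle poles apart, went from 20.3 to 7.49 (-1.42), on 2443 and 874 reads. Every spindle and cytokinesis motor other than KIF4B was thus at least 1.5-fold lower in the DAC library of this line than in its Mock library. KIF20A, which brings the chromosomal passenger complex to the midzone, went from 33.4 to 13.1, and KIF23, the centralspindlin motor, from 23.6 to 10.3. KIF18A and KIF18B, which shorten microtubule plus ends, went from 8.195 to 3.79 and from 24.9 to 9.69. KIF2C and the chromokinesin KIF4A had smaller differences, from 30.9 to 17.2 and from 10.3 to 6.55.

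Transport kinesins in H1792 differed less, with a median of -0.25 and 10 of 13 below 0. At least 1.5-fold lower were 2 of 13, KIF5B and KIF1B, close to the 14.3% of all genes, and 0 were 1.5-fold higher, against 19.8%. KIF5B (ENSG00000170759, chromosome 10 of GRCh37, 32297943 to 32345353) went from 72.8 to 39.5 FPKM, and KIF1B, a carrier of mitochondria and vesicles, from 7.95 to 4.41. The promoter window of KIF5B holds a CHR and that of KIF1B does not. In this line KIF20A and KIF2C, without a CHR, were also at least 1.5-fold lower. KIF4B, with a CHR, was not, but it had only 21 and 20 reads. A relation between the motif and the change was not tested. Among the other kinesins, 4 of 11 were at least 1.5-fold lower in H1792, against 14.3% of all genes. The 1 that was 1.5-fold higher, against 19.8%, was KIF25, on 4 and 10 reads. KIF24, which acts at centrioles and holds a CHR, went from 1.64 to 0.5097 (log2 fold change -1.51). The depolymerase KIF2A went from 12.1 to 6.42, and KIF21A and KIF27 had log2 fold changes of -0.69 and -0.67.

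**Figure D3:**
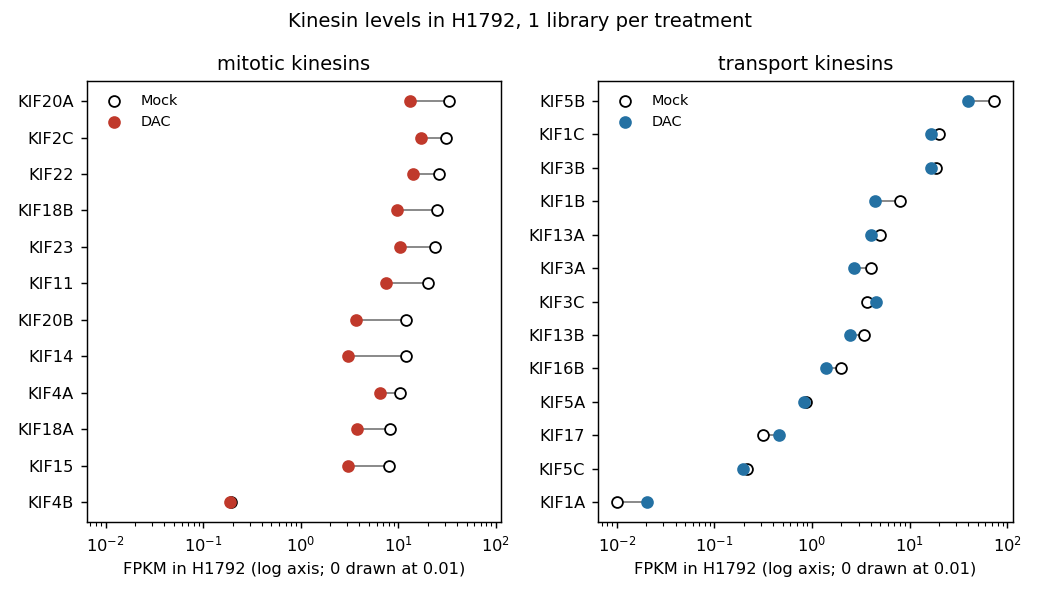
FPKM in H1792 (horizontal log axis, 0 drawn at 0.01) of each mitotic kinesin (left, red) and transport kinesin (right, blue) in the Mock library (open circles) and the DAC library (filled circles). In 11 of the 12 mitotic kinesins the DAC value lies at least 1.5-fold below the Mock value, as in 2 of the 13 transport kinesins and in 14.3% of all genes.

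In A549 the medians lay on either side of 0 as deposited, at -0.20 for mitotic and 0.41 for transport kinesins, with 11 of 12 mitotic below 0 and 12 of 13 transport above 0. With FPKM rescaled to a common sum, which moved the median of all genes in A549 from 0.07 to 0.41, the mitotic median was 0.15 and the transport median 0.78, so that the order of the groups held and the sign of the mitotic kinesins did not. Only KIF22 among the mitotic kinesins was at least 1.5-fold lower (1 of 12, against 17.1% of all genes), with KIF2C next at -0.57, and 0 were 1.5-fold higher (27.4%). Of the transport kinesins, 4 of 13 were at least 1.5-fold higher in A549, against 27.4% of all genes, and 0 were lower (17.1%). They were KIF5A, KIF1A, KIF1B and KIF16B. KIF5A (ENSG00000155980, chromosome 12 of GRCh37, 57939809 to 57980416), a neuronal form of conventional kinesin, had a FPKM that went from 0.224 to 1.26 in A549, from 0.0154 to 0.0276 in PC9, from 5.97 to 6.397 in CL1-0, from 2.43 to 2.47 in CL1-5, from 1.66 to 0.901 in H1299 and from 0.876 to 0.825 in H1792. KIF5A was thus higher after DAC in A549 and lower in H1299, with smaller differences in the other lines. Its exons overlap those of DCTN2 on the other strand. Such an overlap with a gene on the opposite strand was annotated for 5 of the 12 mitotic kinesins (KIF2C, KIF4A, KIF20A, KIF22 and KIF23). It was likewise annotated for 5 of the 13 transport kinesins (KIF1C, KIF3A, KIF3B, KIF5A and KIF13B). The paper names a stranded library kit, but whether the counting used strand is not given in the sources used here.

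PC9 had the same order of groups, with medians of -0.42 for mitotic and 0.15 for transport kinesins, and 11 of 12 mitotic below 0. The change of each gene was small: KIF15 alone was at least 1.5-fold lower (1 of 12, against 8.04% of all genes) and 0 were higher (18.6%). Next to it stood KIF22 at -0.57, KIF20A at -0.55 and KIF18A at -0.53 on the log2 scale. Of the transport kinesins, KIF17 and KIF1A were at least 1.5-fold higher (2 of 13, against 18.6%) and 0 were lower (8.04%). KIF17, a kinesin of dendrites and cilia, rested on 8 and 22 reads in PC9.

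H1299 and CL1-5 ran the other way, with small values. In H1299 the mitotic median was 0.19, with 9 of 12 above 0, and the transport median was -0.01 (0.02 with FPKM rescaled to a common sum). KIF4A and KIF4B, whose reads cannot be told apart with certainty, both stood at 0.19 in H1299 and are counted separately. KIF23 was at least 1.5-fold higher in H1299 (1 of 12 mitotic, against 15.7% of all genes), and 0 mitotic kinesins were lower (9.31%). KIF1A was 1.5-fold higher there and KIF5A 1.5-fold lower, 1 of 13 transport kinesins each way, against the same shares of all genes. In CL1-5 the mitotic median was -0.00087, with 6 of 12 on each side of 0, and 0 of 12 were 1.5-fold lower (12%) or higher (13.7%). The transport median in CL1-5 was -0.18, with 10 of 13 below 0. KIF17 was 1.5-fold lower in CL1-5, from 1.05 to 0.488 FPKM, and KIF1A 1.5-fold higher, again 1 of 13 each way.

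CL1-0, the parent of CL1-5, had medians of -0.02 for mitotic and -0.10 for transport kinesins as deposited, and of 0.16 and 0.08 with FPKM rescaled to a common sum (0.14 for mitotic kinesins after quantile normalization). KIF14 was at least 1.5-fold higher (1 of 12 mitotic, against 15.7% of all genes), from 7.81 to 12.04 FPKM, and 0 were lower (6.26%). Of the transport kinesins 0 were past that fold in either direction.

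**Figure D4:**
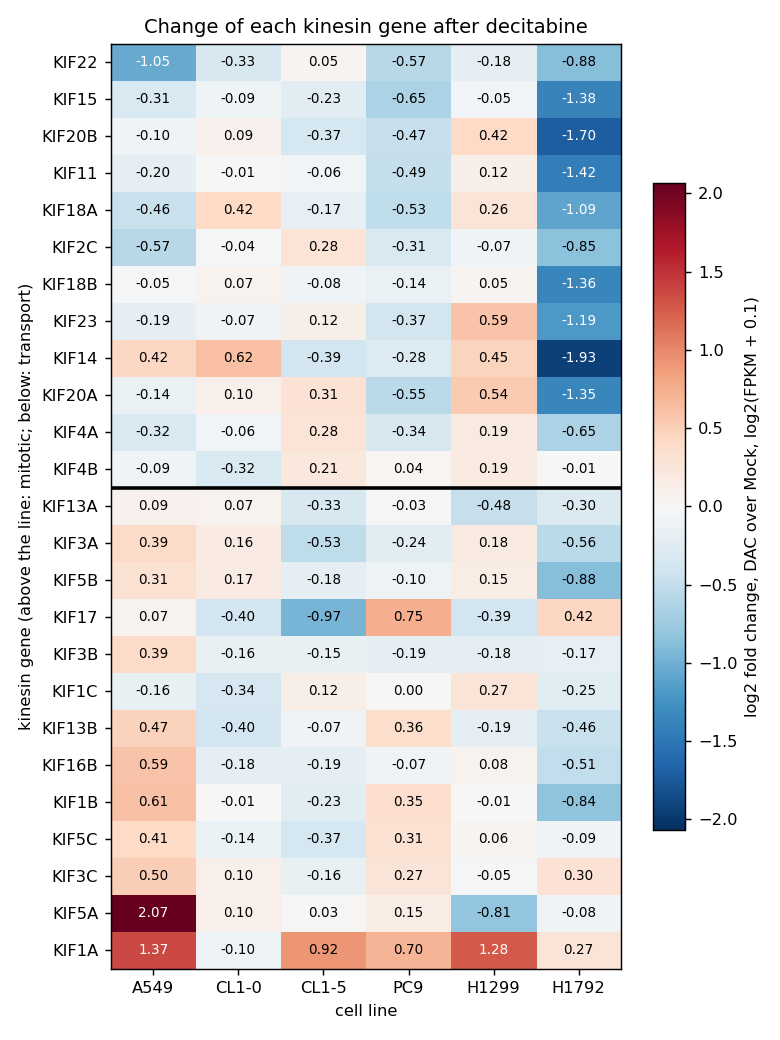
Log2 fold change of DAC over Mock on the log2(FPKM + 0.1) scale, printed and coloured (blue lower, red higher), for each mitotic kinesin (above the black line) and transport kinesin (below it) in each line. The H1792 column is below 0 for all 12 mitotic kinesins, and KIF5A and KIF1A in A549 hold the highest values, 2.07 and 1.37.

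Gene by gene, the mitotic kinesins differed in their pattern over the lines. KIF14 (ENSG00000118193, chromosome 1 of GRCh37, 200520625 to 200589879) had log2 fold changes of 0.42 in A549, -0.28 in PC9, -1.93 in H1792, 0.45 in H1299, 0.62 in CL1-0 and -0.39 in CL1-5, the widest span of the mitotic kinesins. KIF11 went from 26.1 to 22.8 in A549, from 18.1 to 12.9 in PC9, from 21.1 to 20.97 in CL1-0, from 33.6 to 32.3 in CL1-5, from 9.72 to 10.6 in H1299 and from 20.3 to 7.49 in H1792 in FPKM. Its difference was small in CL1-0 and CL1-5 and largest in H1792. KIF20A, whose exons overlap those of BRD8 and CDC23 on the other strand, had log2 fold changes of -0.14 in A549, -0.55 in PC9, -1.35 in H1792, 0.54 in H1299, 0.10 in CL1-0 and 0.31 in CL1-5. KIF23 had values of -0.19 in A549, -0.37 in PC9, -1.19 in H1792, 0.59 in H1299, -0.07 in CL1-0 and 0.12 in CL1-5. Both cytokinesis motors were thus higher after DAC in H1299 and lower in PC9 and H1792, under each scaling tried. The log2 fold changes of KIF18A ranged over -1.09 to 0.42 and those of KIF18B over -1.36 to 0.07, and without H1792 those of KIF18B lay between -0.14 and 0.07. KIF2C ranged over -0.85 to 0.28, KIF4A over -0.65 to 0.28 and KIF20B over -1.70 to 0.42.

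KIF4B is a retrocopy of KIF4A without introns, nearly identical in its coding sequence, and reads of both genes cannot be told apart with certainty. In 10 libraries the FPKM of KIF4B was 1.83% to 2.90% of that of KIF4A. In H1299 it was 28.8 in Mock and 32.9 after DAC, 90.8% of KIF4A in both libraries. Why H1299 differs was not tested. The difference of the medians without KIF4B kept its direction in each line.

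Transport kinesins showed no direction shared by the lines. The subunits of heterotrimeric kinesin-2, which builds cilia, had log2 fold changes of 0.39 in A549, -0.24 in PC9, -0.56 in H1792, 0.18 in H1299, 0.16 in CL1-0 and -0.53 in CL1-5 for KIF3A. KIF3B, its usual partner, had values of 0.39 in A549, -0.19 in PC9, -0.17 in H1792, -0.18 in H1299, -0.16 in CL1-0 and -0.15 in CL1-5. KIF3C ranged over -0.16 to 0.50. KIF3B was higher in A549 and slightly lower in each other line as deposited, and it was above 0 in CL1-0 as well with FPKM rescaled to a common sum. Conventional kinesin had its abundant form KIF5B at FPKM that went from 34.8 to 43.1 in A549, from 33.7 to 31.4 in PC9, from 47.04 to 52.8 in CL1-0, from 31.5 to 27.7 in CL1-5, from 22.5 to 24.9 in H1299 and from 72.8 to 39.5 in H1792. The neuronal form KIF5C ranged over -0.37 to 0.41 on the log2 scale. Of the endosomal carriers, KIF13A ranged over -0.48 to 0.09, KIF13B over -0.46 to 0.47 and KIF16B over -0.51 to 0.59. KIF1C ranged over -0.34 to 0.27, KIF1B over -0.84 to 0.61 and KIF17 over -0.97 to 0.75.

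Summed over genes, the FPKM of the 11 mitotic kinesins without KIF4B went from 209.7 to 91.9 in H1792, from 203 to 158 in A549 and from 243 to 182 in PC9. In CL1-0 it went from 251 to 249, in CL1-5 from 327 to 359 and in H1299 from 180.2 to 199. The ratio of that sum to the summed FPKM of the 13 transport kinesins, which no common scaling of a library changes, went from 1.51 to 0.979 in H1792, from 1.93 to 1.22 in A549, from 2.37 to 1.76 in PC9, from 1.84 to 1.85 in CL1-0, from 3.27 to 3.92 in CL1-5 and from 1.63 to 1.81 in H1299. The ratio was lower after DAC in the same 3 lines in which the mitotic median lay below the transport median.

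Of the other kinesins, 11 were tested and none passed the adjusted threshold. The highest mean log2 fold changes over the lines of the fit were those of KIF25, at 0.54 with an SE of 0.36 (limma, adjusted p = 0.543), and KIF21A, a motor of microtubule growth control, at 0.32 with an SE of 0.15 (limma, adjusted p = 0.436). The lowest were those of KIF9, a kinesin of motile cilia, at -0.20 with an SE of 0.27 (limma, adjusted p = 0.761), and KIF12, at -0.12 with an SE of 0.28 (limma, adjusted p = 0.869). The value of KIF9 was -0.01 without A549 and -0.04 without PC9, and that of KIF25 lay between 0.16 with a pseudocount of 1 and 1.498 with voom. KIF9 had log2 fold changes of -0.94 in A549, -0.85 in PC9, 0.02 in H1792, 0.68 in H1299, -0.10 in CL1-0 and 0.22 in CL1-5. It was lower in A549 and PC9 and higher in H1299. KIF25 was near 0 FPKM in Mock throughout, and in CL1-5 it went from 0.145 to 0.883 on 11 and 60 reads. KIF25-AS1, whose exons overlap those of KIF25 on the other strand, went from 0.311 to 3.71 in the same libraries on 26 and 278 reads, and reads of the pair cannot be told apart without strand. KIF12 was listed at 0 in both PC9 libraries and went from 3.76 to 1.59 in A549. KIF21B went from 0.1901 to 1.01 in PC9 and from 5.37 to 2.105 in CL1-5, in opposite directions.

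The remaining members had log2 fold changes from -0.27 to 0.59 (KIF7, a kinesin of Hedgehog signalling in cilia), -0.90 to 0.33 (KIF2A), -1.51 to 0.45 (KIF24), -0.49 to 0.94 (KIF26A), -0.61 to 0.38 (KIF26B) and -0.67 to 0.57 (KIF27) over the 6 lines. KIF1BP, which encodes a protein that binds kinesins and blocks their motor domain, had values of -0.18 in A549, -0.66 in PC9, -0.13 in H1792, -0.04 in H1299, -0.14 in CL1-0 and 0.21 in CL1-5, with a mean of -0.17 with an SE of 0.14 (limma, adjusted p = 0.629). Without PC9 it was -0.04, and with FPKM rescaled to a common sum -0.04 as well. KIF25-AS1 had a mean of 0.73 with an SE of 0.49 (limma, adjusted p = 0.552), which was 0.11 without CL1-5.

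The kinesins were then read beside lists of genes that act with them. These lists also hold kinesins whose symbols are not KIF and a digit. They are KIFC1 and CENPE among the spindle partners and KIFC2 and KIFC3 among the transport partners. The spindle and cytokinesis partners (35 genes) are mostly genes of kinetochore, spindle and midbody. They also hold the cell cycle genes CDK1, CCNA2, CCNB1, CCNB2, TOP2A and MKI67. Their median log2 fold changes were -1.08 in H1792, -0.43 in A549, -0.32 in PC9 and 0.01 in CL1-0. In CL1-5 the median was 0.13 (-0.01 after quantile normalization), and in H1299 0.43. At least 1.5-fold lower were 34 of 35 in H1792, against 14.3% of all genes, 10 in A549 (17.1%), 2 in PC9 (8.04%) and 0 in each of CL1-0 (6.26%), CL1-5 (12%) and H1299 (9.31%). In H1299, 11 were 1.5-fold higher, against 15.7% of all genes. The A549 count was 0 with FPKM rescaled to a common sum and 4 after quantile normalization, and the PC9 count 1 and 2. The count of genes higher in H1299 was 13 and 5, while the H1792 count was 35 and 34. Shares of all genes past the fold were not worked out for these 2 scalings. The median of the partners in A549 was -0.09 and -0.16 under these scalings, that in PC9 -0.16 and -0.24, and that in CL1-0 0.19 and 0.18. The DNA replication genes (22), used earlier in the cycle than the mitotic kinesins, had medians of -0.85 in H1792, -0.54 in A549, -0.49 in PC9, -0.29 in CL1-0, 0.41 in CL1-5 and 0.46 in H1299. With FPKM rescaled to a common sum and after quantile normalization, the replication median was -0.19 and -0.26 in A549 and -0.11 and -0.13 in CL1-0. CL1-0 and CL1-5 thus stood on opposite sides of 0 for replication genes and near 0 for mitotic kinesins.

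Transport partners (18 genes, mostly of kinesin light chains, adaptors and cargo receptors) had medians of 0.24 in H1792, 0.16 in A549 and 0.35 in PC9. Their medians were -0.08 in CL1-0 (0.10 with FPKM rescaled to a common sum), -0.00352 in CL1-5 and -0.12 in H1299. With FPKM rescaled to a common sum, the A549 median was 0.51 and the H1792 median 0.08. The cell cycle transcription regulators (16) had medians of -0.72 in H1792, -0.30 in A549 (0.04 with FPKM rescaled to a common sum and -0.11 after quantile normalization), -0.19 in PC9 (-0.03 with FPKM rescaled), 0.02 in CL1-0, 0.25 in CL1-5 and 0.35 in H1299. No gene of these 4 lists passed the adjusted threshold of limma over 5 or 6 lines, and at an unadjusted p under 0.05 over 5 lines 1 was higher and 2 were lower. The extremes over 5 lines were CCNB2 at -0.26 (adjusted p = 0.531 from limma) and ECT2 at 0.21 (0.528) among spindle partners. They were MCM5 at -0.28 (adjusted p = 0.4996 from limma) and CCNE2 at 0.27 (0.605) among replication genes, and KIFAP3, the kinesin-2 associated protein, at -0.36 (0.384) and HAP1 at 0.62 (0.406) among transport partners. Among the regulators they were E2F4 at -0.22 (adjusted p = 0.461 from limma) and CDKN1A, an inhibitor of cyclin-dependent kinases, at 0.71 (0.204), and CDKN1A stood at 0.81 (adjusted p = 0.115 from limma) with H1792.

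**Figure D5:**
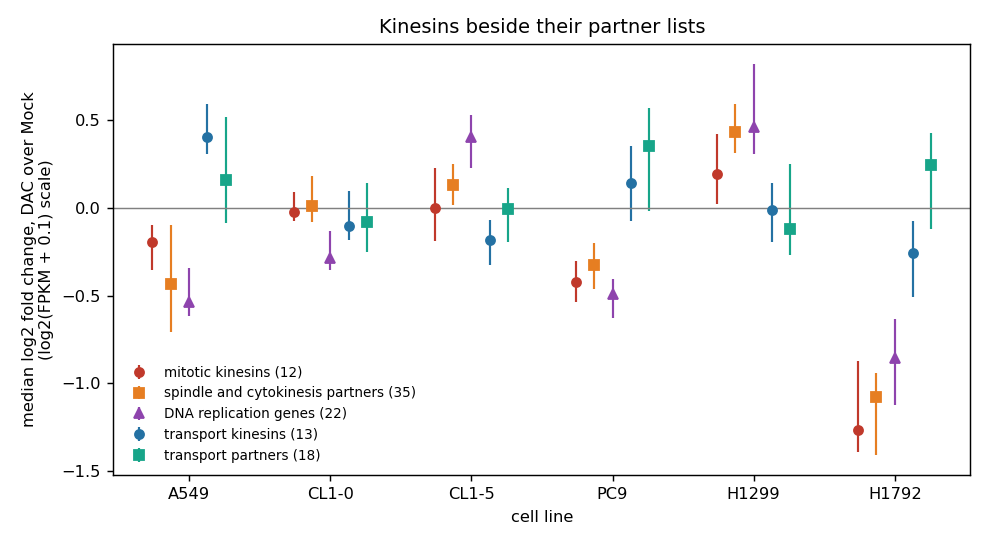
Median log2 fold change of DAC over Mock (points, vertical axis, log2(FPKM + 0.1) scale) with the lower and upper quartile (lines) of mitotic kinesins, spindle partners, DNA replication genes, transport kinesins and transport partners in each line. Mitotic kinesins and spindle partners lie lowest in H1792, at -1.27 and -1.08, while transport partners stand there at 0.24.

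Accessibility at the start of these genes was read from the broad peaks, listed per library with 1 library per line and treatment and therefore without a test. The lines of the libraries labelled CL1-5 and PC9 are in doubt, since the names inside the lists exchange them and, of 143 genes with mRNA in PC9 and none in CL1-5, 92.3% held a promoter peak in the library labelled CL1-5 and 51.7% in that labelled PC9. They are named here by label only and are not matched to the mRNA values. The share of all genes with a peak over an annotated start was not worked out, so the next counts stand without it. A peak covered an annotated start of 11 of the 12 mitotic kinesins in each of the 8 libraries, with KIF4B as the exception. Among the 13 transport kinesins 12 or 13 had such a peak, and the ones without were KIF5A, in the A549 Mock library and in all 4 labelled CL1-5 or PC9, and KIF1A, in the H1299 DAC library. The libraries cover 4 lines, and H1792 and CL1-0 were not analysed here for accessibility.

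By the gene the authors listed for each peak within 3000 bp of its start, 76.5% to 83.3% of 15425 tested genes had a promoter peak. By this measure 9 or 10 of 12 mitotic kinesins and 11 to 13 of 13 transport kinesins had a promoter peak. Of 37 members, 2 gained one in A549 (KIF24 and KIF25, against 5.8% of all genes) and 1 lost it (KIF1C, 3.22%). In H1299, 3 gained one (KIF4B, KIF21B and KIF24, 5.98%) and 2 lost it (KIF20A and KIF1A, 3.2%). In the libraries labelled CL1-5, 1 gained one (KIF4B, 3.95%) and 0 lost it (2.66%). In those labelled PC9, 1 gained one (KIF18A, 5.43%) and 2 lost it (KIF1C and KIF15, 2.92%). For KIF20A, KIF15, KIF1C, KIF18A, KIF24 and KIF25 a peak covered an annotated start in both treatments of the libraries concerned. For KIF4B no peak covered the annotated start in either treatment. Of the gains, only that of KIF21B in H1299 went from no peak over an annotated start to a peak there. KIF1A in H1299 was the one loss without a peak over the start, while its FPKM there went from 0.0793 to 0.334.

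Ranked by fold enrichment within each library, the mitotic kinesins with a listed peak had a median percentile of 69.5 to 79.4 among genes with a promoter peak, and the transport kinesins one of 49.5 to 65.0. KIF22 stood at percentile 94.7 in the A549 Mock library and 97.8 after DAC, at fold enrichments of 10.8 and 11.3, the line in which its FPKM went from 39.7 to 19.2. KIF1A stood low, at percentile 13.8 in A549 Mock and 9.79 after DAC. Levels of accessibility and of mRNA come from separate libraries, and no relation between them was tested.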

How the data were processed

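mRNA-seq of 12 libraries and Omni-ATAC-seq of 8 libraries were analysed. The authors trimmed the mRNA reads, used RSEM and bowtie2 on hg19 (the submitters' processing notes list TopHat2 2.1.1), counted them per gene on a GENCODE annotation and deposited FPKM normalized with DESeq2 1.24.0, beside a mean normalized signal per gene. Columns of the authors' own comparison (a log2 fold change with its error, test score and p-values) were not used. Omni-ATAC-seq reads were aligned to hg19 with BWA 0.7.17-r1188, and the authors deposited broad peaks of MACS2 2.2.5 per library, annotated with ChIPseeker 1.20.0, with a fold enrichment (a ratio) and a −log10 q-value per peak. Their depth per library is unknown here. Columns of values without a sample numbered 0.

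Fits of log2(FPKM + 0.1) used limma 3.58.1 in R 4.3.3 with an intensity trend and the cell line as a block, for genes whose FPKM averaged 0.1 or more over the libraries of 5 lines, at a Benjamini-Hochberg threshold of 0.05. H1792 was left out of the fit, since the study's own comparison did so, and added as an alternative. Mock and DAC are paired by the line: after subtraction of each treatment's mean, libraries of 1 line correlated at 0.731 to 0.900, and of different lines at 0.114 or less. P-values measure the spread between lines, of which CL1-0 and CL1-5 share an origin. Within a line, a gene was counted from 1.5-fold on that scale, without a test. Reads per gene were worked out from FPKM and the mean signal (100% of values whole, tolerance 0.05 reads). They give the depth and counting error, and entered a fit in the voom alternative only. The fit was tested on simulated data.

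Every gene with a symbol of KIF and a digit is accounted for, with values for each mitotic and transport kinesin, for the 2 highest and the 2 lowest other kinesins and for the highest and lowest gene of each partner list. KIF7, KIF2A, KIF24, KIF26A, KIF26B, KIF27, KIF12, KIF21A and KIF21B values in single lines were added after they were seen. The members and lists were chosen with earlier results of these data known. Gene positions are from a GENCODE annotation of GRCh37, and promoter windows from RefSeq (GRCh38.p14), whose coordinates were not mixed. Alternatives were a fit with H1792, one without the block, pseudocounts of 0.01 and 1, other filters, quantile normalization, rescaling to a common sum (TPM), no trend, voom, each line left out, a 2-fold limit, other memberships, a window of 1000 bp, a q-value under 0.01, and peaks over the annotated start. Medians and counts per line under TPM and quantile normalization were added after seeing the data. Figures were drawn with matplotlib 3.10.9 in Python 3.11.15.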

Additional observations from a re-analysis of the deposited data

Results flagged for a closer look

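Each tested member's 6 lines were examined for a single line whose gap to its nearest neighbour took up most of the range (Dixon's limit for 6 values), in 114 groups of Mock levels, DAC levels and log2 fold changes. Chance alone gives about 1 in 20 such groups, and 9 were found. KIF4B stood apart in H1299 at 28.8 FPKM in Mock and 32.9 after DAC. KIF25-AS1 stood apart in CL1-5 with a log2 fold change of 3.21. KIF5A and KIF3B stood apart in A549, with log2 fold changes of 2.07 and 0.39. The log2 fold change of KIF18B in H1792, -1.36, lay far from its other lines. KIF26A in PC9 Mock had the low FPKM of 0.0498, KIF9 in A549 after DAC 0.656 and KIF2A in H1792 after DAC 6.42. Of the 4 log2 fold changes found this way, 1 was in H1792.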

How the results depend on the processing

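Over 15 alternatives, 0 members passed the adjusted threshold of limma in any, and the lowest adjusted p of a member was 0.237 (KIF1A with TPM). Without the replicate block, 0 members and 10 genes in all were called. The count of all genes, 27, was 53 with H1792, 0 with a pseudocount of 1, 2 without a filter, 41 with TPM, 18 with quantile normalization, 6 without the trend and 178 with voom, and 0 to 22 higher with each line left out; it was 0 without A549 and 0 without CL1-5. TPM moved the median of all genes over the lines from 0.07 to 0.19. Of the 38 members tested, 14 kept the sign of their log2 fold change in every alternative. KIF14 stood at -0.18 with H1792, and KIF12 at 0.0627 with TPM and 0.0855 with a pseudocount of 0.01. Leaving out lines, KIF12 ranged from -0.27 to 0.14 and KIF17 from -0.42 to 0.00916, with KIF12 above 0 without A549 and KIF17 above 0 without CL1-5. The difference of the medians kept its sign in each line under every alternative. Its mean over lines lay between -0.24 and -0.32 and, leaving out lines, between -0.14 (without H1792) and -0.38. With TPM the mitotic median was 0.15 in A549 and 0.16 in CL1-0, and the transport median 0.0799 in CL1-0 and 0.0247 in H1299. With quantile normalization the mitotic median was 0.14 in CL1-0. With TPM, mitotic kinesins 1.5-fold higher numbered 1 in A549 and 2 in CL1-0 and those lower 0 in PC9, while transport kinesins higher numbered 10 in A549 and 1 in H1792 and those lower 2 in CL1-5 and 5 in H1792. With quantile normalization, mitotic kinesins lower numbered 2 in A549 and 1 in CL1-0 and those higher 0 in H1299, while transport kinesins higher numbered 0 in H1299 and PC9 and those lower 1 in CL1-0. At 2-fold, mitotic kinesins higher numbered 0 in CL1-0 and H1299 and those lower 0 in PC9, while transport kinesins higher numbered 2 in A549 and 0 in CL1-5 and PC9, and those lower 0 in CL1-5, H1299 and H1792. The 11 mitotic kinesins lower in H1792 numbered 11 under each scaling and 8 at 2-fold. For TPM and quantile normalization no share of all genes was worked out, so these counts stand without a background. TPM alone raised the A549 median of all genes from 0.07 to 0.41, and the A549 counts under TPM hold that shift. At the 2-fold limit, 1309 of all 22603 genes were lower in H1792. The number of all genes higher in A549 at that limit was 3511. Kinesins with a listed promoter peak numbered 31 to 33 per library, and 28 to 36 with the smaller window, the stricter q-value or peaks over the annotated start. Depth limits members with few reads, such as KIF17 in PC9 (8 reads in Mock) and KIF1A in H1792 (0 reads in Mock). The causes were not tested.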
